A study of Homo sapiens with 4 samples.

Results

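The SUM159 line, which was established from a triple-negative breast cancer (TNBC), expressed 186 genes with a LINC symbol at 1 CPM or more, where CPM is the read count scaled to 1000000 reads in genes. A LINC symbol (LINC and a number) is the provisional name of a long intergenic noncoding RNA. The genes were chosen by their measured level, which had to average 1 CPM or more across the 4 libraries, so the levels below are a description. They were 186 of the 2167 LINC symbols among 60279 genes in the count tables, and 186 of the 14269 genes of any kind that reached the same mean. Of the remaining LINC symbols, 1135 had no read in any library and 846 had reads but a mean under 1 CPM. The means just above the threshold were 1.00303, 1.00521 and 1.00599 CPM, and those just below it were 0.996, 0.990 and 0.988 CPM. Only the 66 genes with a mean of 5 CPM or more are named, and the 120 between 1 and 5 CPM are given as counts.

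RNA was sequenced from an untreated culture and from cultures treated with palbociclib, with indisulam, or with both drugs (combination), with 1 library per condition. Palbociclib blocks the kinases CDK4 and CDK6, which drive entry into the cell cycle. Indisulam makes the ligase receptor DCAF15 bind the splicing factor RBM39, which is then degraded, and the study asked how it acts together with palbociclib. The labels give 0.5 µM palbociclib and 2 µM indisulam for 10 days, whereas the series text gives 2 µM and 3 µM for 16 h. In the paper, the doses and time of the labels are those of the SUM159 cultures sequenced for senescence signatures. Those of the series text belong to its splicing experiment, aligned with Hisat2, while the submitters' processing notes name TopHat2. Beyond this the 2 accounts were not reconciled here. All cultures shared a medium with serum, insulin and hydrocortisone, the control is labelled untreated rather than vehicle-treated, and all results come from 1 line. The series text mentions technical duplicates, and the paper's methods also give duplicates for the experiments tested for senescence signatures. Here 1 library per condition was analysed and no difference has a replicate check.

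The libraries held 12555908 to 16712174 reads in genes. Markers of mesenchymal-like breast cancer lines were at 1 CPM or more for 6 of 6 genes, with summed levels of 17623 to 26329 CPM. Of 7 receptor and luminal genes 4 reached a mean of 1 CPM (summed over the 7, 177 to 264 CPM), and KRT18 alone made up most of the sum, with a mean of 202 CPM. The means of ESR1, PGR and EPCAM were under 1 CPM and that of CDH1 was 1.19 CPM. The rest of the 4 that reached 1 CPM had means between those of CDH1 and KRT18, so luminal genes were not all absent. Of the blood cell markers, PTPRC was at 11.1 to 17.5 CPM and CD3E was at 0. The 3 fibroblast genes listed, which mesenchymal-like lines also express, summed to 2028 to 3856 CPM. In the order untreated, palbociclib, indisulam and combination, DCN was at 233, 551, 1681 and 1841 CPM, LUM at 0.478, 5.12, 26.9 and 27.2 CPM and COL1A1 at 1795, 2807, 2148 and 1246 CPM. DCN and LUM were thus highest in both libraries with indisulam, and their part in the differences below was not tested.

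Long intergenic noncoding RNAs are transcribed by RNA polymerase II from stretches between protein-coding genes, and are usually capped, spliced and polyadenylated like messenger RNAs. They carry no long conserved reading frame, and most are expressed at a low level and in few tissues. A few bind chromatin regulators, scaffold ribonucleoprotein complexes or act on the transcription of a neighbouring gene. Most LINC genes have no established function, and the symbol describes where a transcript lies rather than what it does.

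Most of the LINC genes were expressed at a low level. The 186 genes together took 0.120% of the reads in genes without treatment. This share was 0.148% in the palbociclib, 0.166% in the indisulam and 0.186% in the combination library. Only 31 had a mean of 10 CPM or more and 11 of 20 CPM or more. In all 4 libraries, 131 of the 186 reached 1 CPM, and 2 did so in only 1 library. All 66 named genes reached 1 CPM in every library, where the lowest count of any was 14 reads, and 42 reached 5 CPM in every library.

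LINC02154 (chrX:13266041-13303452, minus strand) alone provided much of the summed level. It was at 175 CPM untreated, 347 with palbociclib, 498 with indisulam and 517 with the combination, which was 14.5%, 23.4%, 29.9% and 27.8% of the sum. Without it, the summed level of the other LINC genes was 1029, 1135, 1166 and 1339 CPM in the same order. The sum was thus lowest in the untreated library and highest with the combination both with and without LINC02154. The median level of the 186 genes was 2.71 CPM untreated, 3.31 with palbociclib, 2.84 with indisulam and 3.76 with the combination. Of the 66 genes at 5 CPM or more, 21 were highest in the combination library, 17 with palbociclib, 14 in the untreated library and 14 with indisulam. The number of LINC symbols with at least 1 read was 605, 639, 716 and 795 in the same order, while the indisulam library was the deepest.

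**Figure D1:**
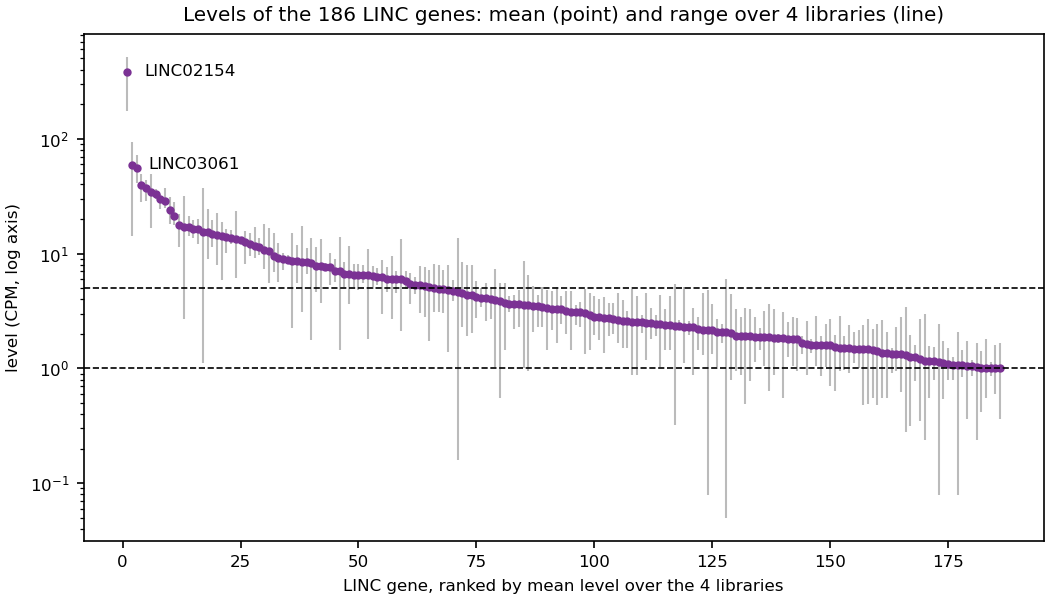
Level in CPM (log axis) of the 186 LINC genes, ranked by their mean over the 4 libraries. Points are means, lines run from the lowest to the highest library (a library at 0 reads is drawn at the lower end of the line, at 0.05 CPM), and dashed lines mark 1 and 5 CPM. LINC02154 stands at a mean of 384 CPM, above LINC03061 at 59.2 CPM.

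After LINC02154, the highest mean levels were those of LINC03061 (59.2 CPM), LINC01278 (55.3 CPM), LINC00958 (39.2 CPM) and LINC00963 (37.4 CPM). LINC01278 was at 41.2 CPM untreated, 49.4 with palbociclib, 57.7 with indisulam and 72.7 with the combination. LINC00958 was at 30.7, 48.9, 27.9 and 49.4 CPM in the same order, higher in both libraries with palbociclib. LINC00963 was at 43.7, 41.9, 34.9 and 28.9 CPM, lower in both libraries with indisulam. None of these last 3 differed by as much as 2-fold in any comparison. Levels of different genes can be compared only per length, and exon lengths ranged from 0.181 kb (LINC00680) to 33.2 kb (LINC00662). Per kilobase of exon and 1000000 reads (RPKM), LINC02154 was at 246, LINC00680 at 45.7, LINC00888 at 32.6, LINC02056 at 21.0 and LINC03061 at 11.6, against a median of 2.01 over the 66 genes. LINC02154 was thus first on both scales, whereas LINC00680 ranked second through its short annotated length. The lengths are from GENCODE 44, and the annotation release used for counting is not given in the sources used here. The counted exons may therefore differ in length, and RPKM is uncertain for short genes such as LINC00680 and LINC00888 (0.421 kb).

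For each pair of libraries, a log2 ratio of counts scaled to the library totals was taken, with a 95% interval from Poisson counting error in brackets. A gene was called when it differed at least 2-fold and the interval excluded a ratio of 1. Intervals cover counting error only and not the variation between cultures. An upper bound on the spread of a log2 ratio, from the departure of the 4 libraries from additivity over all genes, was 0.62 at 1 to 5 CPM, 0.37 at 5 to 20 CPM, 0.26 at 20 to 100 CPM and 0.28 at 100 CPM or more. In RNA from a whole culture, fewer cells that express a gene and less of its RNA per cell cannot be told apart.

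Palbociclib alone was compared with no treatment to see which LINC genes followed inhibition of CDK4 and CDK6. Of the 186 genes, 30 were called higher and 19 lower, where 5.88% of all tested genes were called higher and 4.89% lower. The median log2 ratio was 0.19, against -0.02 over all tested genes. Of the 66 genes at 5 CPM or more, 7 were called higher (LINC00648, LINC00680, LINC00840, LINC00869, LINC01204, LINC01963 and LINC02957) and 4 lower (LINC02434, LINC02475, LINC02577 and LINC03061). Over all genes at 5 CPM or more, 3.85% were called higher and 3.47% lower, and the medians were 0.06 for the LINC genes and -0.03 for all.

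Indisulam alone was compared with no treatment in the same way. Of the 186 genes, 28 were called higher and 23 lower, against 8.4% and 6.69% of all tested genes, and the median log2 ratio was 0.13 against 0.06. At 5 CPM or more, 8 were higher (LINC00665, LINC00680, LINC01619, LINC02015, LINC02056, LINC02154, LINC02957 and LINC03061) and 7 lower (LINC00339, LINC00467, LINC00840, LINC00880, LINC01133, LINC02475 and LINC02997). Among all genes at 5 CPM or more, 5.88% were higher and 4.77% lower.

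The combination differed from no treatment in more LINC genes than either single drug. Of the 186, 50 were called higher and 25 lower, against 12.9% and 10.5% of all tested genes, with a median log2 ratio of 0.32 against 0.05. At 5 CPM or more, 12 were higher and 6 lower, against 9.73% and 8.76% of all genes at that level, with medians of 0.39 and 0.04. The higher 12 were the 8 that were higher with indisulam alone and LINC00869, LINC01204, LINC01963 and LINC02783. The lower 6 were LINC00339, LINC00467, LINC02241, LINC02475, LINC02609 and LINC02997.

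Comparing the combination with each single drug shows what the other drug did in its presence. Against palbociclib, 34 of the 186 were called higher and 19 lower, where 9.57% and 7.38% of all tested genes were. The named genes among these were 8 higher and 6 lower, against 6.69% and 5.58% of all genes at that level. Against indisulam, 26 of the 186 were called higher and 7 lower, where 5.04% and 3.15% of all tested genes were. The named genes among these were 6 higher and 1 lower (LINC02434), against 2.58% and 2.21% of all genes at that level. The median log2 ratio of the 186 was 0.16 against palbociclib (0.07 over all tested genes) and 0.21 against indisulam (-0.01 over all). The comparisons share libraries and are not independent of each other.

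Genes with few reads were called more often, and most LINC genes had few, so they were also set beside other genes of the same level. Among genes with a mean of 1 to 5 CPM, the combination was called higher than untreated in 38 of 120 LINC genes (31.7%), in 22.5% of 701 other lncRNA genes and in 27.9% of 1694 protein-coding genes. It was called lower in 15.8%, 16.0% and 20.1% in the same order. At 5 to 20 CPM it was higher in 9 of 55 LINC genes (16.4%), 15.5% of 194 other lncRNA genes and 15.8% of 2936 protein-coding genes, and lower in 10.9%, 19.1% and 12.1%. For palbociclib alone, 19.2% of LINC genes at 1 to 5 CPM were called higher, against 11.1% of other lncRNA and 15.3% of protein-coding genes. At 5 to 20 CPM these shares were 12.7% (7 of 55), 6.19% and 7.46%. For the combination against indisulam at 5 to 20 CPM, 10.9% of LINC genes were called higher (6 of 55), against 3.61% and 5.86%. For indisulam alone at 1 to 5 CPM, 20 of 120 LINC genes were called higher, against 13.8% and 20.8%, and at 5 to 20 CPM the shares were 9.09%, 9.28% and 9.98%. Whether the LINC share lay above, between or below the other classes thus differed among the comparisons. No test of these differences was made.

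**Figure D2:**
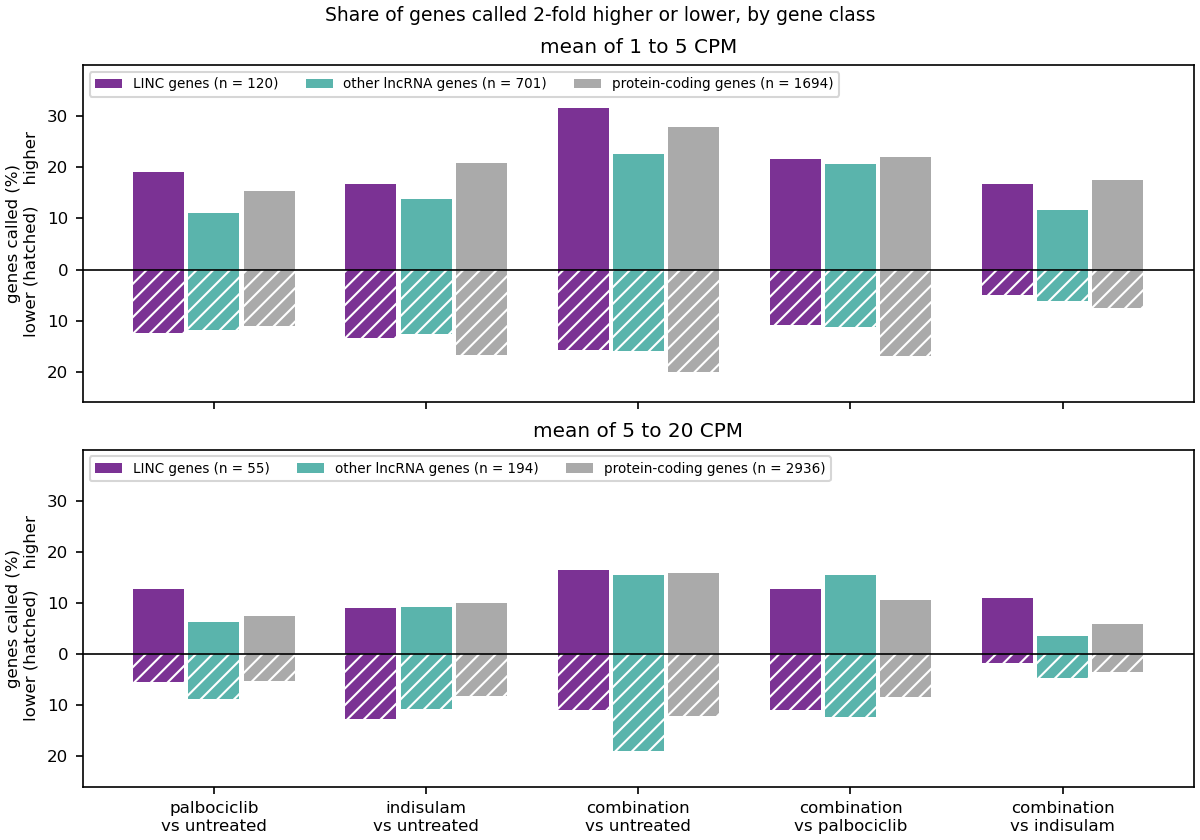
Percent of genes called higher (bars up) or lower (hatched bars down) in each of the 5 comparisons, for LINC genes, other lncRNA genes and protein-coding genes with a mean of 1 to 5 CPM (top) or 5 to 20 CPM (bottom). In the comparison of combination with untreated, 31.7% of the LINC genes at 1 to 5 CPM and 16.4% at 5 to 20 CPM were called higher.

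In the layout of 4 libraries, each drug has 2 estimates that share no library. The effect of palbociclib is given by palbociclib against untreated and by combination against indisulam, and that of indisulam by indisulam against untreated and by combination against palbociclib. For indisulam, 18 of the 186 LINC genes were called higher and 8 lower in both estimates, against 4.87% and 3.66% of all tested genes. For palbociclib, 11 were higher and 2 lower in both, against 2.02% and 1.24%. No LINC gene was called in opposite directions for palbociclib, and 1 was for indisulam (LINC01133). As a description across genes, which are not replicates, the estimates of indisulam correlated at 0.69 (Pearson) and 0.58 (Spearman) over the 186 genes, against 0.73 and 0.66 over all tested genes. Those of palbociclib correlated at 0.47 and 0.46, against 0.52 and 0.49. Of the named genes, 7 were called the same way in both estimates of indisulam and 3 in both estimates of palbociclib. Shares called in both estimates were not taken over all genes at 5 CPM or more, or at matched level. Because genes with few reads are called more often, these counts are not read as a result about LINC genes.

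**Figure D3:**
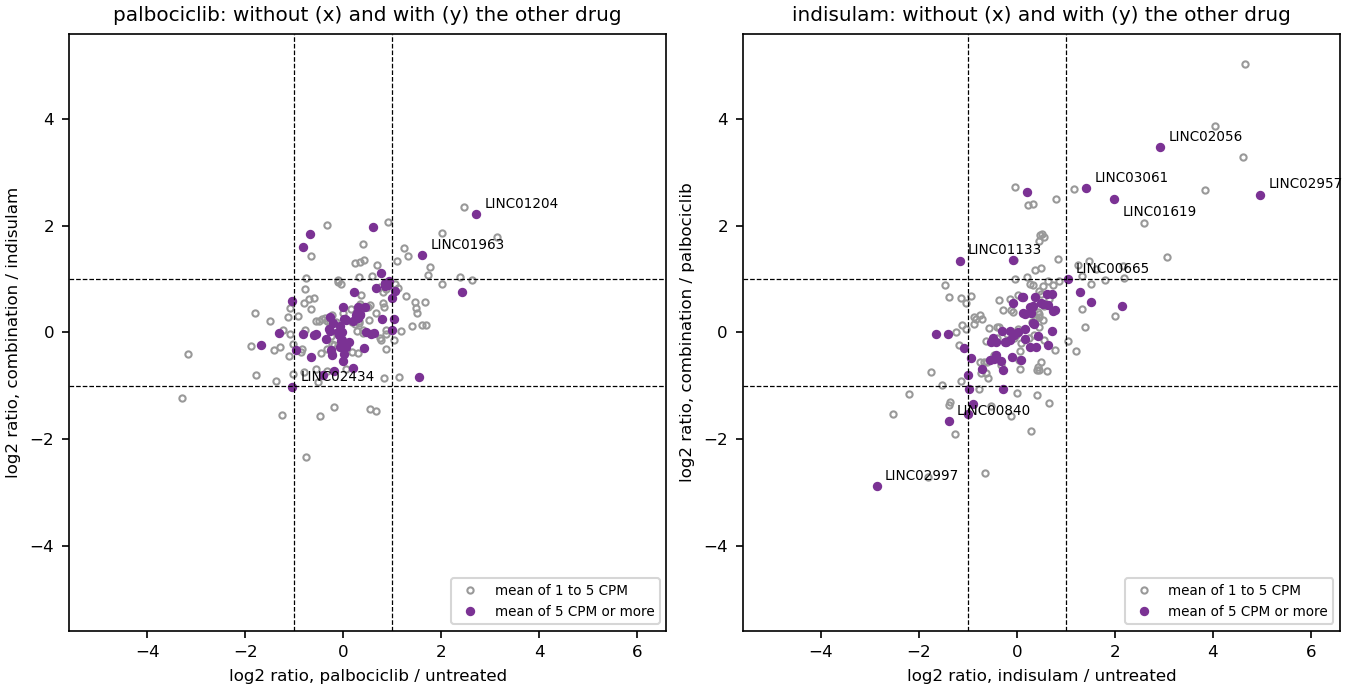
The log2 ratios of the 186 LINC genes for palbociclib (left) and indisulam (right), without the other drug on the x axis and with it on the y axis; filled points have a mean of 5 CPM or more, open points 1 to 5 CPM, and dashed lines mark 2-fold. LINC02056, LINC02957, LINC01619 and LINC03061 lie at the upper right for indisulam, and LINC01204 and LINC01963 for palbociclib.

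The 5 named genes higher with indisulam in both estimates were LINC02056, LINC02957, LINC01619, LINC03061 and LINC00665. LINC02056 (chr5:72574120-72660669, minus strand) was at 4.06 CPM untreated, 2.68 with palbociclib, 31.4 with indisulam and 30.5 with the combination. Both libraries with indisulam were high, both without it were low, and the log2 ratios were 2.93 (2.52 to 3.34) alone and 3.47 (2.98 to 3.97) on top of palbociclib. LINC02957 (chr9:90996949-91001901, plus strand) was at 1.12, 3.39, 37.0 and 20.6 CPM in the same order. Its log2 ratios were 4.97 (4.23 to 5.70) alone, which was the largest of any named LINC gene, and 2.58 (2.12 to 3.04) on top of palbociclib. Palbociclib alone was also higher than untreated for this gene, by 1.54 (0.70 to 2.39). LINC01619 (chr12:91984976-92142914, minus strand) was at 2.71, 1.81, 10.9 and 10.6 CPM, with log2 ratios of 1.98 (1.46 to 2.50) and 2.50 (1.88 to 3.12). It overlaps BTG1, an antiproliferative gene, on the same strand, and 2 genes on the other, and reads in shared exons were not assigned.

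LINC03061 (chr13:109269634-109278512, plus strand), second by mean CPM, was at 35.2 CPM untreated, 14.2 with palbociclib, 94.2 with indisulam and 93.1 with the combination. It was lower with palbociclib alone, with a log2 ratio of -1.31 (-1.56 to -1.06), but with indisulam present the ratio was -0.02 (-0.12 to 0.09). The log2 ratios for indisulam were 1.42 (1.27 to 1.57) and 2.71 (2.48 to 2.93). LINC00665 (chr19:36259540-36331770, minus strand), whose transcript has been reported to encode a micropeptide, was at 6.13, 11.7, 12.6 and 23.4 CPM. It was intermediate with either drug and highest with both, and its log2 ratios for indisulam were 1.03 (0.66 to 1.41) and 1.00 (0.72 to 1.28). These lie at the 2-fold threshold and fell under it with 3 other ways of scaling the libraries.

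LINC02997 and LINC00840 were lower with indisulam in both estimates. LINC02997 (chr5:67379378-67806600, plus strand) was at 10.9 CPM untreated, 13.9 with palbociclib, 1.44 with indisulam and 1.81 with the combination. The libraries with and without indisulam did not overlap, and the log2 ratios were -2.87 (-3.48 to -2.25) and -2.89 (-3.47 to -2.30). LINC00840 (chr10:43778946-43901004, plus strand) was at 8.28, 17.3, 3.11 and 5.36 CPM. It was higher with palbociclib alone, by 1.05 (0.72 to 1.39), and lower with indisulam, by -1.39 (-1.87 to -0.92) alone and -1.67 (-2.05 to -1.30) on top of palbociclib.

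LINC01204 and LINC01963 were higher, and LINC02434 was lower, with palbociclib in both estimates. LINC01204 (chrX:45505388-45632121, plus strand) was at 2.23 CPM untreated, 15.0 with palbociclib, 3.05 with indisulam and 14.4 with the combination. Its log2 ratios for palbociclib were 2.72 (2.15 to 3.28) without indisulam and 2.21 (1.78 to 2.65) with it. LINC01963 (chr2:216217045-216220192, plus strand) was at 2.71, 8.43, 3.41 and 9.47 CPM, with log2 ratios of 1.61 (1.06 to 2.16) and 1.45 (1.01 to 1.90). For both genes the 2 libraries with palbociclib were high and the 2 without it low, and indisulam alone was not called against untreated. LINC02434 (chr4:188159705-188161157, plus strand) was at 11.5, 5.59, 16.8 and 8.15 CPM. Both its ratios for palbociclib were close to the threshold, at -1.04 (-1.44 to -0.63) and -1.03 (-1.34 to -0.72), and the indisulam library was the highest.

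Promoter sequences are shown for 5 of these 10 genes, those found in the RefSeq promoter table used here, since each was called the same way in both estimates of a drug. LINC01619 and LINC00665 were higher with indisulam, LINC02997 and LINC00840 were lower with it, and LINC02434 was lower with palbociclib. LINC02056, LINC02957, LINC01204, LINC01963 and LINC03061 are named only. Each sequence runs 5′ to 3′ on the strand of the gene, from 250 bases before to 50 after the RefSeq start on GRCh38.p14. Capitals mark matches on either strand. The motifs searched were the AP-1 motif with the letters TGANTCA, the cyclic AMP response element (CRE) with the letters TGACGTCA, the E-box with the letters CACGTG, the GC box with the letters GGGCGG, the CCAAT box and the TATA box with the letters TATAAA. The windows are chr5:67792963-67793262 (plus) for LINC02997, chr12:92142782-92143081 (minus) for LINC01619, chr10:43859161-43859460 (plus) for LINC00840, chr4:188159803-188160102 (plus) for LINC02434 and chr19:36331669-36331968 (minus) for LINC00665.
LINC02997: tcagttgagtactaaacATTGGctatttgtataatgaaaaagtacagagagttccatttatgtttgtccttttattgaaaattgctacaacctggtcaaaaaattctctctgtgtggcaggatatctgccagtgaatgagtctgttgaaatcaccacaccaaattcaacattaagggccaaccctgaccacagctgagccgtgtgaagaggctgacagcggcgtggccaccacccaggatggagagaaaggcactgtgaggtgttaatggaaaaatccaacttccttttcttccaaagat
LINC01619: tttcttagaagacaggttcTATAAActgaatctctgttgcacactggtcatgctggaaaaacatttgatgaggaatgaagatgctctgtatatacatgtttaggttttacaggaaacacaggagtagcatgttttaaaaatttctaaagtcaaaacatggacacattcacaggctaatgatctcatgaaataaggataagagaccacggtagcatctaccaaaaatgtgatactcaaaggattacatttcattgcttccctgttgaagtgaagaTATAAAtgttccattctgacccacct
LINC00840: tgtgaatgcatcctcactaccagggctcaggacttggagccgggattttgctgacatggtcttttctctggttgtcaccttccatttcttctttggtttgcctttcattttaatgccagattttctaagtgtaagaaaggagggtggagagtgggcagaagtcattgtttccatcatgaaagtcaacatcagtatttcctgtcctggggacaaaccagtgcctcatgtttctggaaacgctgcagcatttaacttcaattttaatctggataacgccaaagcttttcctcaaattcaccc
LINC02434: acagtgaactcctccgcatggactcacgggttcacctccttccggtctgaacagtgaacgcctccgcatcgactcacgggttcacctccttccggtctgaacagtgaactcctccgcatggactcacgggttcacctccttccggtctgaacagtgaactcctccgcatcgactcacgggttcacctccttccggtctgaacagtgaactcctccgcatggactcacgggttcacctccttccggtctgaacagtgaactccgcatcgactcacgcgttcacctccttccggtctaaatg
LINC00665: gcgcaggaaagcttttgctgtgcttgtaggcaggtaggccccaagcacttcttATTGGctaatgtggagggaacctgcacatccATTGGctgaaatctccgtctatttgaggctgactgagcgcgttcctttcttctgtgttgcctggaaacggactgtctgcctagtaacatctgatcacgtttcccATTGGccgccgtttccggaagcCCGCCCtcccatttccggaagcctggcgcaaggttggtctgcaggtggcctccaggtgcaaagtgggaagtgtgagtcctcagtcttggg

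In the window of LINC00665 the CCAAT box was found 3 times, at -197, -166 and -62 from the start, and the GC box once, at -40, all on the other strand. The window of LINC02997 held 1 CCAAT box, at -233 on the other strand, and that of LINC01619 held the TATA box letters at -231 and 25. No motif searched was in the windows of LINC00840 and LINC02434. The window of LINC02434 was a tandem repeat, 85.2% identical to itself when shifted by 50 bases, and it lies within the gene as GENCODE annotates it. The RefSeq start was 52 bases from the GENCODE start for LINC00665, 83 for LINC01619 and 348 for LINC02434, but 413835 for LINC02997 and 80465 for LINC00840, so these last windows belong to starts inside the GENCODE gene. Over the 44 LINC genes at 5 CPM or more with a RefSeq promoter, the CCAAT box was in 59.1% and the TATA box in 20.5%, against 34.6% and 11.5% of all 35116 promoters. The GC box was in 40.9% against 45.0%, the AP-1 motif in 9.09% against 7.71%, the E-box in 6.82% against 7.26% and the CRE in 2.27% against 1.85%. The 44 are 1 promoter per gene at 5 CPM or more, whereas the 35116 were not cut to expressed genes or to 1 per gene. The 2 sets are thus unlike, and the differences in share were not tested. A match describes letters and not a bound site.

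A further set of genes was highest in the combination library, with intermediate levels with either drug. For LINC02154 the log2 ratio to untreated was 0.99 (0.91 to 1.06) in the palbociclib library, just short of 2-fold. It was 1.51 (1.44 to 1.58) in the indisulam library, and the combination reached 1.56 (1.49 to 1.63). On top of indisulam, palbociclib added 0.05 (0.01 to 0.10). LINC02015 (chr3:177816865-177899224, plus strand) was at 16.8 CPM untreated, 29.2 with palbociclib, 41.3 with indisulam and 49.0 with the combination. It had the same order of libraries as LINC02154, with log2 ratios to untreated of 0.79 (0.55 to 1.04), 1.29 (1.07 to 1.52) and 1.54 (1.32 to 1.76).

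LINC00680 and LINC00869 showed the same order of untreated as lowest and combination as highest, but GENCODE types them as transcribed unprocessed pseudogenes. Reads that aligned to more than 1 place were not counted, so the values of such near-copies are uncertain. LINC00680 (chr6:57959029-57961345, minus strand) was at 1.75, 9.69, 8.02 and 13.6 CPM, a log2 ratio of 2.91 (2.29 to 3.53) for the combination against untreated. It also overlaps 2 genes on the same strand. LINC00869 (chr1:149655731-149669321, plus strand) was at 2.79, 5.67, 4.85 and 7.59 CPM, a log2 ratio of 1.42 (0.88 to 1.97).

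**Figure D4:**
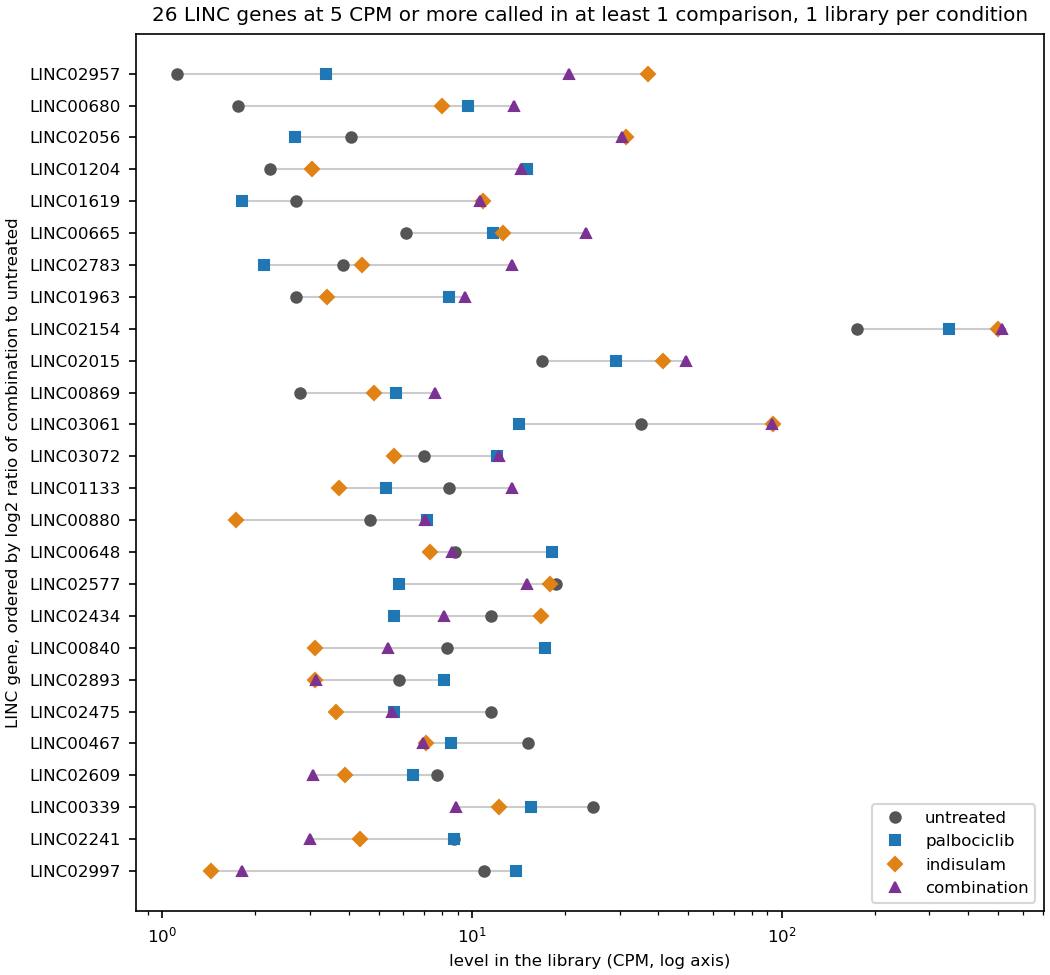
Level in CPM (log axis) in each of the 4 libraries for the 26 LINC genes at 5 CPM or more that were called in at least 1 comparison, ordered by the log2 ratio of combination to untreated. LINC02957 at the top was at 1.12 CPM untreated and 37.0 CPM with indisulam, and LINC02997 at the bottom was at 10.9 and 1.44 CPM.

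Departure from additivity is the log2 ratio of the combination to untreated minus the sum of those of the single drugs. Over the 186 LINC genes, 21 lay at least 2-fold above the sum and 14 below it, with counting intervals that excluded 0, against 3.93% and 3.83% of all tested genes. At 5 CPM or more, 6 lay above (LINC03061, LINC02577, LINC01133, LINC02475, LINC02783 and LINC00880) and 2 below (LINC02957 and LINC00680). The spread of the departure over all tested genes was 0.88 at 1 to 5 CPM and 0.52 at 5 to 20 CPM. Of the 186 LINC genes, 120 lie at 1 to 5 CPM. Shares of all genes at 5 CPM or more, or at matched level, were not taken. The counts are therefore not read as a result about LINC genes. LINC01133 (chr1:159958035-159984750, plus strand), an RNA studied in several carcinomas, was at 8.44 CPM untreated, 5.28 with palbociclib, 3.71 with indisulam and 13.5 with the combination. It was below untreated with each drug alone and above it with both, and its departure of 2.51 (1.91 to 3.12) was the largest in size of the named genes. LINC02783 (chr1:17189783-17197617, plus strand) was at 3.82, 2.13, 4.43 and 13.5 CPM. Only the combination library was high, and the departure was 2.42 (1.65 to 3.19).

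LINC00880 (chr3:157081667-157128595, minus strand) was at 4.70 CPM untreated, 7.17 with palbociclib, 1.74 with indisulam and 7.03 with the combination. The indisulam library alone was low, with a log2 ratio to untreated of -1.40 (-2.03 to -0.77). LINC02577 (chr7:106774955-106838480, plus strand) was at 18.7, 5.83, 17.8 and 15.0 CPM, and here the palbociclib library alone was low, at -1.67 (-2.05 to -1.30). LINC02475 (chr4:44016700-44022063, plus strand) was at 11.5, 5.59, 3.65 and 5.50 CPM, so that all 3 treated libraries were at least 2-fold below untreated, and the combination was within counting error of palbociclib alone (-0.02, -0.48 to 0.44). The departures of these genes were 1.37, 1.43 and 1.62. That of LINC02957 was -2.39 (-3.25 to -1.52) and that of LINC00680 was -1.66 (-2.37 to -0.94), where the 2 single ratios added up to more than the combination showed.

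Another 5 named genes were called lower in the comparisons that involve indisulam. LINC00339 (chr1:22024558-22031223, plus strand) was at 24.6 CPM untreated, 15.5 with palbociclib, 12.3 with indisulam and 8.91 with the combination, with a ratio to untreated at the 2-fold threshold for indisulam (interval -1.25 to -0.75) and of -1.46 (-1.75 to -1.16) in the combination library. It overlaps a coding gene on the same strand. LINC00467 (chr1:211382736-211435570, plus strand) was at 15.2, 8.59, 7.12 and 6.96 CPM, with -1.09 (-1.42 to -0.76) and -1.12 (-1.47 to -0.77). All 3 treated libraries were below untreated for both genes.

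LINC02241 (chr5:20611806-20937800, plus strand) was at 8.76 CPM untreated, 8.75 with palbociclib, 4.37 with indisulam and 2.99 with the combination. LINC02609 (chr1:90769086-90851671, minus strand) was at 7.73, 6.46, 3.89 and 3.06 CPM, and LINC02893 (chr9:87008440-87042419, minus strand) was at 5.81, 8.12, 3.11 and 3.13 CPM. In all 3 genes both libraries with indisulam lay below both without it. Combination against palbociclib gave log2 ratios of -1.52 (-2.03 to -1.02), -1.06 (-1.58 to -0.54) and -1.35 (-1.85 to -0.85), while indisulam alone against untreated, at -0.99, -0.98 and -0.89, was short of 2-fold.

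The remaining 2 called genes were each called in only 1 of the 2 estimates of palbociclib. LINC00648 (chr14:47764954-47795302, minus strand) was at 8.84 CPM untreated, 18.2 with palbociclib, 7.30 with indisulam and 8.64 with the combination, high in the palbociclib library alone. Its log2 ratio for palbociclib alone was 1.04 (0.71 to 1.36), and adding indisulam to palbociclib gave -1.07 (-1.38 to -0.76). LINC03072 (chr7:128524016-128531069, minus strand) was at 7.01, 12.1, 5.62 and 12.3 CPM, higher in both libraries with palbociclib. Its ratio was 1.11 (0.75 to 1.47) on top of indisulam and 0.78 (0.40 to 1.15), short of 2-fold, without it. The departure from additivity of LINC03072 was 0.34 (-0.18 to 0.86), so its 2 ratios did not differ beyond counting error.

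The other 40 of the 66 genes were called in none of the 5 comparisons, and the largest log2 ratio of any of them was 0.97 in size. They had means of 5.36 to 55.3 CPM. Besides LINC01278, LINC00958 and LINC00963, they were LINC00165, LINC00174, LINC00205, LINC00265, LINC00460, LINC00511, LINC00641, LINC00649, LINC00662, LINC00667, LINC00839, LINC00847, LINC00882, LINC00888, LINC00938, LINC00960, LINC01001, LINC01085, LINC01089, LINC01116, LINC01128, LINC01138, LINC01234, LINC01355, LINC01806, LINC02035, LINC02210, LINC02381, LINC02476, LINC02604, LINC02615, LINC02616, LINC02693, LINC02982, LINC02984, LINC02987 and LINC03033. LINC00511 and LINC00460, both studied as cancer-associated RNAs, ranged from 29.6 to 36.6 CPM and from 12.1 to 20.1 CPM over the libraries. Since single libraries were compared, a ratio under 2-fold does not show that these genes did not change.

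Where a LINC gene lies bears on what its reads can mean. By GENCODE 44 on GRCh38, 13 of the 186 overlapped a coding gene on the opposite strand and 9 on the same strand. Another 14 began within 5 kb downstream of a coding gene on its strand, and 7 began within 2 kb of the start of a coding gene on the opposite strand. The other 143 met none of these position rules, which does not place them all far from coding genes. The start of LINC01133, for example, lay 3.80 kb from that of SLAMF9. Counting genes of any type, 100 overlapped a gene on the opposite strand, 56 overlapped a gene on the same strand and 73 overlapped none. The libraries were stranded, but the strand setting of the counting is not given in the sources used here. If strand was not used, reads of a gene on the opposite strand may be mixed into the counts of some of these 100. Overlap was taken over whole gene spans, introns included, so not all of them need share exons with that gene. Of the 66 at 5 CPM or more, 50 met none of the position rules above. Of the same 66, 25 overlapped no gene, among them LINC02154, LINC03061, LINC02015, LINC02056, LINC02957, LINC00648, LINC02434, LINC03072, LINC01204 and LINC01963. These are 10 of the 26 called genes. LINC02997 overlapped 6 genes on the opposite strand and 2 on the same strand, and LINC00840 overlapped 2 on the opposite strand. GENCODE types 10 of the 186 as something other than lncRNA, and the 5 of these at 5 CPM or more (LINC02210, LINC00888, LINC01085, LINC00680 and LINC00869) are pseudogene types.

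Some long noncoding RNAs are known to act on a neighbouring gene, so each LINC gene was set beside the protein-coding gene with the nearest annotated start. The distance between the starts had a median of 81.1 kb over the 66 genes. A neighbour at 1 CPM or more was present for 41 of the 66. In indisulam against untreated, 9 of these 41 LINC genes were called, and the neighbour was called the same way for 2 and the opposite way for 1. In combination against untreated these were 3 of 10 and 0 of 10, and in palbociclib against untreated 1 of 5 and 0 of 5. Of all tested genes, 8.4% were called higher and 6.69% lower with indisulam. These shares were 12.9% and 10.5% with the combination and 5.88% and 4.89% with palbociclib. The called pairs at 5 CPM or more are few. At 1 CPM or more, 122 LINC genes had a neighbour at that level. Of these, 35 were called with indisulam, 53 with the combination and 32 with palbociclib, each against untreated. The neighbour was called the same way for 4, 15 and 5, and the opposite way for 2, 3 and 0. The 122 genes had 115 different neighbours, the counts were not tested, and no link with neighbours is read from them. Across the 122 LINC genes at 1 CPM or more with a measured neighbour, Pearson correlations ranged from 0.18 to 0.24 over the 5 comparisons. Spearman correlations ranged from 0.13 to 0.23. Across the 41 at 5 CPM or more the ranges were 0.01 to 0.37 (Pearson) and -0.03 to 0.31 (Spearman). In combination against palbociclib the 41 gave 0.37 by Pearson but 0.09 by Spearman. All are given as a description.

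The pair of LINC02997 and CD180 lay 183 kb apart by their GENCODE starts. The RefSeq start of LINC02997 lies 413835 bases from its GENCODE start, so this distance and the choice of neighbour depend on the start used. CD180, a homologue of the Toll-like receptors, was at 43.4 CPM untreated, 226 with palbociclib, 2.03 with indisulam and 16.3 with the combination. Both genes were lower with indisulam in both estimates, with log2 ratios for CD180 of -4.37 and -3.79, but CD180 was also higher with palbociclib in both estimates (2.38 and 2.96) and LINC02997 was not. IRS2, an adaptor of the insulin receptor, lay 517 kb from LINC03061 and was at 20.1, 8.90, 60.4 and 24.5 CPM. It followed LINC03061 in being lowest with palbociclib and highest with indisulam, but its combination library was near untreated (0.28) where that of LINC03061 was at 1.40. PADI1, a peptidylarginine deiminase 15.3 kb from LINC02783, was at 3.42, 3.39, 4.19 and 10.2 CPM and was, like it, high in the combination library alone. TRAF5 was called higher with indisulam (1.13) where LINC00467, 56.1 kb away, was called lower. BTG1, which LINC01619 overlaps, was at 156, 77.1, 116 and 80.2 CPM and did not follow it.

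**Figure D5:**
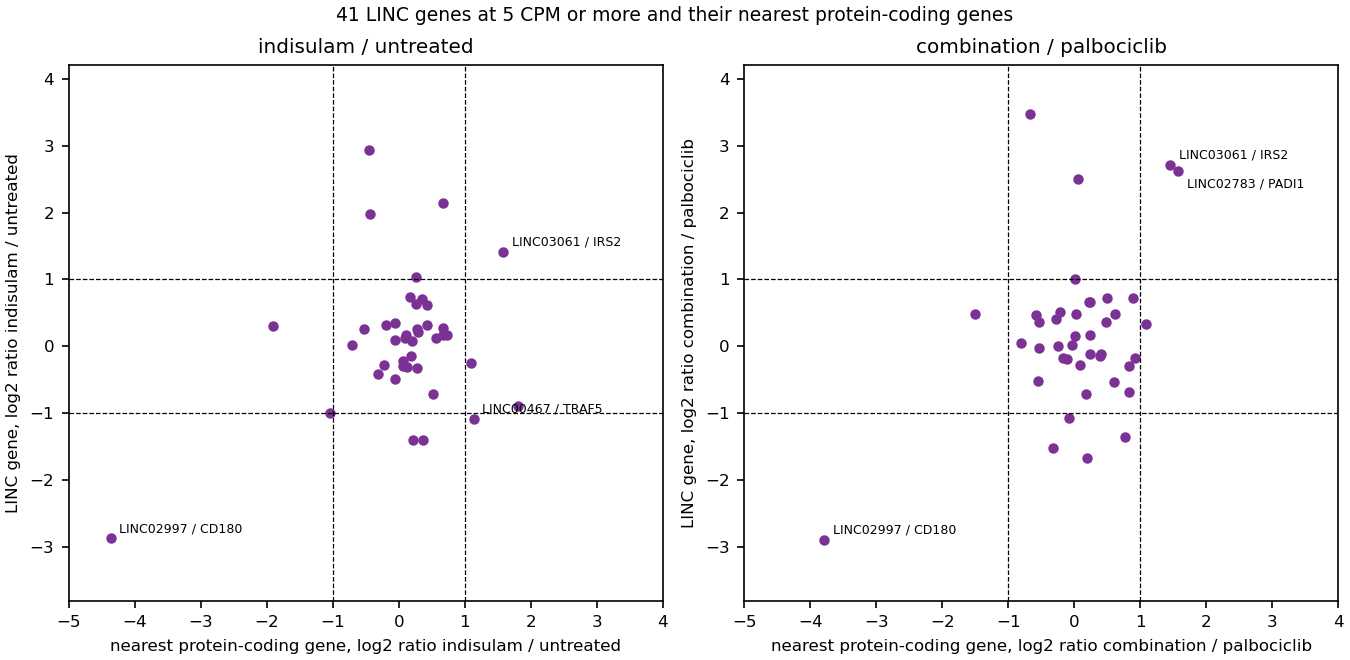
Log2 ratio of 41 LINC genes at 5 CPM or more (y axis) against that of the nearest protein-coding gene (x axis), for indisulam against untreated (left) and combination against palbociclib (right). Dashed lines mark 2-fold and names are given where both genes of the pair were called; LINC02997 and CD180 lie at the lower left in both panels.

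Well-known long noncoding RNAs without a LINC number were read in the same libraries as a list of 24, of which 20 reached 1 CPM. Of these 20, 1 was called higher and 1 lower with palbociclib alone, and 2 and 1 with the combination, where 12.9% and 10.5% of all tested genes were called with the combination. With indisulam alone 2 were higher and 0 lower by the same 2-fold rule, which gives no p-value. The combination was higher for 2 and lower for 4 relative to palbociclib, and higher for 1 and lower for 2 relative to indisulam. These are few genes, and no result about the list is read from them. The nuclear RNAs NEAT1, a scaffold of paraspeckles, and MALAT1 were called in none of the 5 comparisons. NEAT1 was at 807 CPM untreated, 1187 with palbociclib, 685 with indisulam and 816 with the combination, and MALAT1 at 453, 544, 362 and 492 CPM. Among imprinted RNAs, H19 was at 107, 164, 68.3 and 17.5 CPM, lowest with the combination (-2.61, -2.80 to -2.42, against untreated). MEG3 was at 19.1, 42.8, 24.7 and 69.1 CPM and KCNQ1OT1 at 3.74, 6.93, 8.26 and 14.2 CPM, both highest with the combination. H19 thus moved the other way from MEG3 and KCNQ1OT1 in the combination library.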

How the data were processed

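The deposited values are raw counts of reads per Ensembl gene, 1 table per library, which the authors made from stranded mRNA libraries and did not normalize. The submitters' processing notes name TopHat2 2.1, HTSeq and GRCh38. The strand setting and annotation release are not given in the sources used here. Reads that HTSeq tallied apart, as not unique (6.46 to 6.84%), ambiguous or in no gene, were kept out of totals. The gene totals of 12555908 to 16712174 reads set the precision, and 3 counts correspond to 0.180 to 0.239 CPM.

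Symbols and positions are from GENCODE 44. Counts were scaled to the mean gene total, and log2 ratios were taken with a pseudocount of 1. The 95% interval used the standard error from Poisson counts. A difference was called at 2-fold with an interval excluding a ratio of 1. With 1 library per condition no test was made. The rule for calls was tried on simulated counts that held Poisson error and known changes only. These hold no variation between cultures, so the simulation does not bear on it. Python 3.11.15, numpy 2.4.6, pandas 2.3.3, scipy 1.17.1 and, for scaling factors, edgeR 4.0.16 were used.

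The LINC genes, the lists and the rules were chosen with earlier results of these data known. By rule, every LINC gene at 5 CPM or more may be named, those called in at least 1 comparison and the 5 most abundant with all values. Promoter sequences are from RefSeq. A marker gene of the lists is not reported here.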

Additional observations from a re-analysis of the deposited data

Results flagged for a closer look

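The effect of indisulam on LINC01133 pointed in opposite directions without and with palbociclib. The gene was at 8.44 CPM untreated and 3.71 with indisulam, and at 5.28 CPM with palbociclib and 13.5 with the combination. The log2 ratios were -1.17 (-1.62 to -0.72) and 1.34 (0.95 to 1.74), and the difference between them, the departure from additivity, was 2.51 (1.91 to 3.12). It was picked out because the 2 pairs of libraries moved opposite ways, each by 2-fold or more. With 1 library per condition the difference was not tested, and the interval covers counting error only.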

How the results depend on the processing

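Of 89 recomputed counts and bounds, 64 stayed within 1.5 times the main value and 25 did not. The main counts of called LINC genes, in either direction, were 49 for palbociclib and 51 for indisulam against untreated. Those of the combination were 75 against untreated, 53 relative to palbociclib and 33 relative to indisulam, with 13 in both estimates of palbociclib and 26 in both of indisulam. Without a filter on low counts, over 1032 LINC genes, they were 85 for indisulam, 143, 97 and 58 for the combination in the same order, and 40 in both estimates of indisulam. At 5 CPM or more they were 11, 15, 18, 14 and 7, with 3 in both estimates of palbociclib and 7 in both of indisulam. With a 1.5-fold threshold they were 76 for palbociclib, 62 for combination against indisulam, and 32 and 42 in both estimates of palbociclib and indisulam. Over the 73 LINC genes that overlap no other gene they were 23, 19, 32, 23 and 18, with 8 and 12 in both estimates. These last sets, like that at 5 CPM or more, hold fewer genes. In both estimates of palbociclib, 6 were called with a pseudocount of 5 and 7 when a ratio also had to exceed 2 times the bound on the spread. Beyond the shares given above for the main rule, shares over all genes were not taken under these settings. The counts describe how far the calls depend on the settings and are not read as a result about LINC genes.

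Of 65 calls of named genes none reversed under the 8 settings tried on them. With TMM, median-of-ratios and upper-quartile scaling 2 fell short of 2-fold, both of LINC00665. With a pseudocount of 5, 4 did (LINC00339 in indisulam against untreated, LINC00665 and LINC02609 in combination against palbociclib, and LINC00869 in palbociclib against untreated). With TMM scaling the split for indisulam was 26 higher and 27 lower in place of 28 and 23, so no direction of the LINC genes as a group follows for that drug. No paired analysis was possible because each condition has 1 library.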
